A study of Mus musculus with 12 samples.

Results

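RNA that came down with the deadenylase CNOT6L from wild-type mouse hepatocytes was compared with the total RNA of the same cells. The differences come from 6 of the 12 arrays in the series, namely the 3 wild-type precipitates (IP) and the 3 wild-type inputs, set against each other by replicate number. The p-values and standard errors also use the spread of the other 6 arrays, since all 12 entered 1 fit. Of 15780 named genes on the array, 9496 were bright enough to test. The other 6 arrays hold the IP and input of Cnot6l knockout hepatocytes, which the series text calls the negative control of the precipitation. Every group was primary hepatocytes of 8-week-old male C57BL/6J mice, wild type or Cnot6l KO, with 3 arrays per group and no treatment named in the labels. Each preparation was divided, so that 1 portion gave the input and the other the anti-CNOT6L precipitate. RNA of both was hybridised to Affymetrix Mouse430_2 arrays after labelling from 10 micrograms of total RNA. The titles call the replicates biological, and since nothing else ties each number to an animal, the p-values measure the spread between the preparations of both genotypes. Values are log2 levels, and a difference is the IP level minus the input level of a preparation, averaged over the 3 preparations. A negative difference means that a transcript made up less of the precipitate than of the input, as both were placed on a common array scale.

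CNOT6L is a deadenylase: within the CCR4-NOT complex it trims poly(A) tails of messenger RNAs in the cytoplasm, which opens the way to decapping and decay. The complex has no strong sequence preference of its own. It is brought to its targets by RNA-binding proteins, such as tristetraprolin on AU-rich elements, and by the microRNA machinery. Many transcripts with short lives, among them those of immediate early genes, cytokines and feedback inhibitors, are classical targets of this route, while transcripts of secreted liver proteins and of mitochondrial enzymes are long-lived and abundant in hepatocytes.

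Hepatocyte markers were strong in the wild-type inputs, with mean levels of 14.88 for the albumin gene Alb and 13.69 for the transthyretin gene Ttr, whereas Pck1 was dim at 3.40. All but Pck1 of the 7 hepatocyte markers were bright enough to test. The mean over the hepatocyte list ranged from 9.72 to 10.97 in the wild-type inputs and from 9.73 to 10.72 in the IPs. Marker lists of other cells were dimmer, and 2 of 9 macrophage, 2 of 7 endothelial, 4 of 7 stellate and 0 of 3 neutrophil markers were bright enough to test. Their means in the wild-type inputs ranged from 5.17 to 5.43 for macrophages, 4.89 to 5.82 for endothelium, 5.31 to 5.95 for stellate cells and 3.91 to 4.23 for neutrophils. In the wild-type IPs the macrophage and neutrophil lists ranged from 5.42 to 5.81 and from 4.02 to 4.58. Cd68 was bright among the macrophage genes, at a mean of 11.77 in the inputs and 10.61 in the IPs. In such bulk RNA, fewer cells of a type and less RNA per cell cannot be told apart. Spiked-in poly(A) control transcripts were brighter in the IP than in the input by 5.82, 4.47 and 4.71 in the wild-type preparations and by 5.99, 4.77 and 4.90 in the knockout preparations. For Gapdh, the gap of the 3′ over the 5′ control probe set was also wider in every wild-type IP, by 0.85, 0.88 and 1.95, and in every knockout IP, by 1.07, 0.85 and 1.66. Hybridisation controls were brighter in the IP by 5.17, 2.45 and 3.19 in the wild type and by 5.04, 3.89 and 3.67 in the knockout. The range of levels was narrower in every IP. Its SD changed by -0.18, -0.17 and -0.24 in the wild type and by -0.35, -0.24 and -0.32 in the knockout. In the wild-type preparations the 90th percentile changed by -0.15, -0.14 and -0.21. These array measures move with the fraction in both genotypes, and their part in the gene differences, also those of bright and dim transcripts, was not tested. The input arrays numbered 1 stand apart on the control probe sets in both genotypes, with an 18S ribosomal RNA level of 5.29 in the wild type against 12.71 and 10.66 in the other two wild-type inputs.

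On the deposited scale more transcripts were lower than higher in the wild-type precipitate, though not after quantile normalization, which called 172 higher and 159 lower. The largest differences upward were those of Nfkbia, Tec, G0s2, Taf5 and Tent5a, and the largest downward those of Cyp39a1, Loxl2, Qsox1, Mta2 and Snrpd3. By limma with the preparation as a block and an adjusted p under 0.05, 229 genes were higher in the IP, which is 2.41% of the genes tested. In the same fit 438 genes were lower, which is 4.61%, so that 7.02% were called in either direction. The median difference over all 9496 genes was -0.11, and 41.6% of them lay above 0. The higher genes had a median difference of 1.27 and the lower genes one of -1.16. A change of more than 4-fold was seen for 27 of the higher and 25 of the lower genes. Every called gene had the same sign in all 3 preparations. In 173 of the 229 higher genes the 3 IP arrays all lay above the 3 inputs, against 7.72% of all genes tested, and in 244 of the 438 lower genes they all lay below, against 7.59%.

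The calls depend on the pairing of IP with input and on how the arrays are scaled. Without the replicate block 10 genes were called higher, or 0.105%, and 0 were called lower, or 0%, while at an unadjusted p under 0.05 the blocked limma fit counted 895 higher and 1749 lower. The 10 genes were Nfkbia, Tec, G0s2, Taf5, Socs3, Fgf21, Irf1, Cnot8, Dusp1 and Frs3, all of which are also called with the block. Leaving out wild-type preparation 2 left 1 gene called higher and 0 called lower, leaving out preparation 1 left 52 and 59, and leaving out preparation 3 left 23 and 8. With the 6 wild-type arrays fitted alone, 321 genes were called higher and 612 lower. Leaving out 1 knockout preparation gave 170 to 305 wild-type calls higher and 288 to 633 lower. After quantile normalization of the deposited values 172 genes were higher and 159 lower, and after cyclic loess 222 (2.34%) and 227 (2.39%), so that the share of higher genes among the calls went from 34.3% to 52.0% and 49.4%. Called under all 3 scalings were 165 of the higher genes and 155 of the lower genes, or 1.74% and 1.63% of the genes tested. Among the wild-type calls named below, those of Klf15, Ccl9, Hoxa7, Cnot3, Cnot7, Upf1, Exosc5, Rps4l, Psmd4, Psap, Ndufb2, Ndufs8, Ndufa10 and Atp5b were not made under each scaling. The same holds for Hadha, Etfa, Acaa2, Cyp2j11, Mgst3, Apoe, F7, Plg, F12, F2, H2-D1, H2-K1, Decr2, Atf5 and Dhx9, and every other wild-type call named below was made under each.

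**Figure D1:**
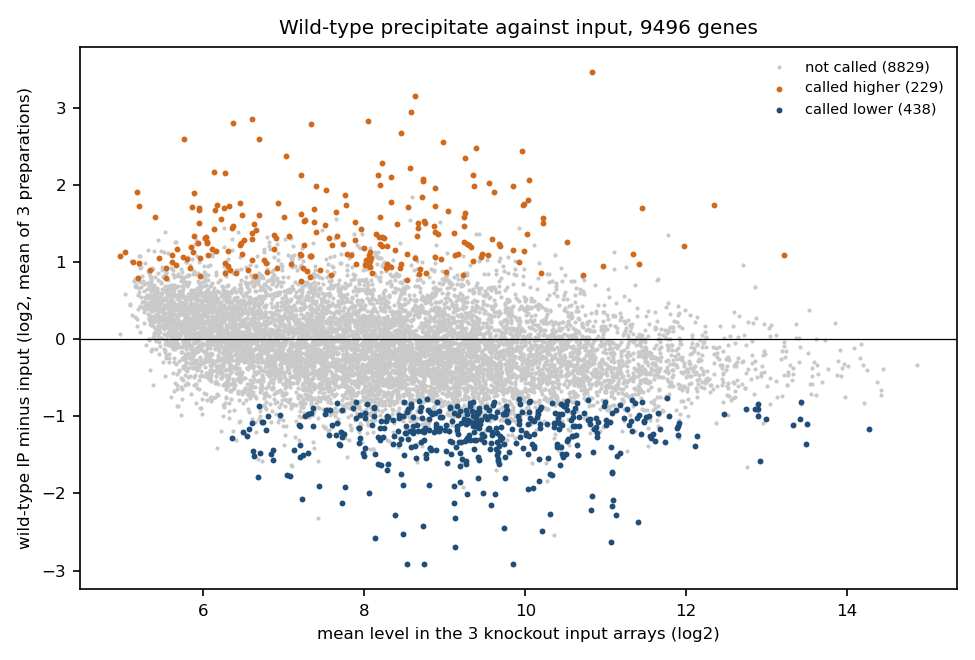
Wild-type IP minus input (log2, mean of 3 preparations) against the mean level in the 3 knockout inputs (log2), 1 point per gene for 9496 genes, with the 229 genes called higher in orange and the 438 called lower in blue. Higher genes are spread over low and middle levels, while lower genes lie mainly above a level of 8.

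The direction of the difference went with the level of the transcript in both genotypes. Among the 973 genes with a knockout input level under 6, the median difference was 0.31 in the wild type and 0.39 in the knockout, with 31 genes higher and 0 lower in the wild type. The filter used the mean over all arrays, IPs included. A gene with input levels under 5.57 was therefore tested only if its IP levels were higher, so a median above 0 in this bin is partly set by the filter. From 8 to 10 the wild-type median was -0.22, with 92 higher and 227 lower of 3433 genes. From 10 to 12 it was -0.35 in the wild type and -0.34 in the knockout, with 14 higher and 135 lower of 1444 genes. By their medians, tested transcripts under a level of 6 sat above their input and those above 8 below it in both precipitates. Under cyclic loess the wild-type medians of these 3 bins were 0.11, -0.06 and -0.13. The higher genes had a median wild-type input level of 7.66 and the lower genes one of 9.45, against 8.15 over all genes tested. What part the level had in any class described below was not tested.

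Nfkbia had the largest difference of all genes, and other genes of inflammatory signalling were also called higher. It encodes IkappaB-alpha, the inhibitor that holds NF-kappaB in the cytoplasm. Its level was 10.44, 10.36 and 10.95 in wild-type inputs 1 to 3 and 14.29, 13.80 and 14.06 in the matching IPs. All 3 IP arrays lay more than 2-fold above every input, whereas in the knockout the IP levels of 11.69, 10.22 and 10.98 straddled the inputs of 10.75, 10.78 and 10.95. The wild-type difference over 3 preparations was 3.47 ± 0.30, which is 11.1-fold, with limma adjusted p = 0.00448. Here and below, ± gives limma's standard error (SE), whose spread is estimated from both genotypes together and not from the 3 wild-type preparations alone. Socs3, which shuts down cytokine receptors that signal through JAK and STAT, stood at 6.23, 5.83 and 7.03 in the inputs and at 9.41, 8.73 and 9.35 in the IPs. These groups did not overlap either, and the difference was 2.80 ± 0.23 (limma adjusted p = 0.00442). Bcl3, a nuclear IkappaB protein, was higher by 1.99 ± 0.22, from input levels of 10.69, 9.99 and 9.23 to IP levels of 12.59, 11.77 and 11.52. Irf1, a transcription factor of the interferon response, was higher by 2.22 ± 0.22, with inputs of 8.43, 8.77 and 8.71 and IPs of 10.54, 11.16 and 10.86. All 4 genes were called under each scaling.

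Bases near the start of 4 inflammatory genes called higher are shown as examples, picked because a match to the NF-kappaB consensus lies there. They are genomic DNA of RefSeq (GRCm38.p6), 5′ to 3′ on the gene's strand, with the match in capitals, and are not the precipitated RNA itself. The Nfkbia stretch is chr12:55492642-55492701 on the minus strand, Irf1 is chr11:53769976-53770035, Cxcl1 is chr5:90891149-90891208 and Cxcl2 is chr5:90903777-90903836, these 3 on the plus strand.
Nfkbia: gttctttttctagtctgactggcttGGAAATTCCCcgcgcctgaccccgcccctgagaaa
Irf1: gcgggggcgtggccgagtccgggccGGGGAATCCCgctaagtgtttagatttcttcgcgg
Cxcl1: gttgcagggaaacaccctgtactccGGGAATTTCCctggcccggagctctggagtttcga
Cxcl2: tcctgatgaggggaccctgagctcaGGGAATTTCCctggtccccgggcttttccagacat
The Nfkbia match is on the opposite strand, at positions -29 to -20 from the start, and the Irf1 match lies at -13 to -4. Cxcl1 and Cxcl2, which lie close together on chromosome 5, carry the same 10 letters. In windows from 250 bases before to 50 after the start, searched on both strands, the consensus was found in 24 of 189 higher genes with a window (12.7%), in 29 of 352 lower genes (8.24%) and in 766 of all 7770 (9.86%). Bcl3, also called higher, has a match that is not shown. A match is a description of the letters, and no test was made of these shares.

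Within the NF-kappaB list of 13 tested subunits, inhibitors and kinases, 2 genes were called higher, Nfkbia and Bcl3, and none lower. The list's median was -0.11, its members ran from -0.69 to 3.47, and 6 of the 13 lay above 0. The median became 0.08 under cyclic loess. Cytokines and chemokines had 4 higher and 2 lower of 19 tested, with a median of 0.15 that turned to -0.04 under cyclic loess. Cxcl2, which draws neutrophils, had inputs of 7.72, 8.72 and 10.65 and IPs of 10.42, 11.43 and 11.63, a difference of 2.13 ± 0.34. Its IP and input arrays overlap across preparations, although the IP was above the input in each preparation. Cxcl1 was higher by 1.70 ± 0.34 and Lif, a cytokine of the interleukin-6 family, by 1.5 ± 0.28, while the chemokine gene Ccl9 was lower by 1.29 on the log2 scale. Ly96, which encodes the Toll-like receptor partner MD-2, was higher by 1.91 ± 0.26 and was the only 1 called of 18 Toll-like receptor and adaptor genes. Il15ra, a subunit of the interleukin-15 receptor, was higher by 2.38 ± 0.27. Among interferon regulatory factors and STATs, 11 tested, Irf1 was the 1 higher gene and Stat2 the 1 lower gene, at -1.20 ± 0.22.

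Immediate early transcription factors, which are switched on within minutes of a stimulus, had 4 of 17 tested members called higher and none lower. The list's median was 0.57, with 0.31, 0.63 and 0.25 in the 3 preparations, against -0.11 over all genes. In the knockout the same list had a median of -0.29, with 0 higher and 2 lower. Fos stood at 7.64, 8.88 and 9.47 in the inputs and 9.55, 12.14 and 11.33 in the IPs. The lowest IP was barely above the highest input, and the difference was 2.35 ± 0.35 (limma adjusted p = 0.015). Csrnp1 was higher by 1.5 ± 0.21, Fosl2 by 1.10 ± 0.22 and Fosl1 by 0.93 ± 0.21, and all 4 were called under each scaling. Of 14 Krüppel-like factors, 10 lay above 0 and the median was 0.44, but Klf15 alone was called, at 0.98 ± 0.23, and not under each scaling. Cebpd, a C/EBP factor of the acute phase response, was the 1 higher gene of 14 hepatocyte transcription factors, at 1.46 ± 0.27. Cry1, a repressor of the circadian clock, was higher by 1.09 ± 0.26, and 10 of 11 clock genes lay above 0.

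Some genes of kinase signalling were also among the higher ones, while most members of the signalling lists were not called. Non-receptor tyrosine kinases had 1 higher of 17, Tec, receptor tyrosine kinases 0 higher and 1 lower of 19, and MAP kinase cascades 0 called of 29. The phosphatidylinositol 3-kinase, AKT, mTOR and FoxO list had 0 higher and 2 lower of 20. Receptor adaptors had 3 higher and 1 lower of 19. Over all genes tested 2.41% were higher and 4.61% lower. Dusp1, a phosphatase that switches MAP kinases off, had inputs of 12.20, 12.48 and 12.36 and IPs of 13.89, 14.61 and 13.76. The IP was at least 2-fold above the input in every preparation, and the difference was 1.74 ± 0.21 (limma adjusted p = 0.00944). Dusp6, which acts on ERK, was higher by 1.57 ± 0.36, with 0.64, 2.42 and 1.64 in the 3 preparations. These were the 2 genes called among 7 dual-specificity phosphatases, of which 6 lay above 0. Plk3, a stress-responsive kinase, was higher by 2.10 ± 0.34. The unconventional cyclin gene Ccng2, tied to growth arrest, was higher by 2.28 ± 0.27, from inputs of 8.79, 8.42 and 8.07 to IPs of 10.66, 10.82 and 10.64. Of 35 tested cyclins and cyclin-dependent kinases, 2 were higher and 1 lower. Tec, a tyrosine kinase of the TEC family, stood at 8.35, 8.87 and 8.65 in the inputs and at 11.49, 12.17 and 11.66 in the IPs. Its 3 preparations gave nearly equal differences, with a mean of 3.15 ± 0.20 (limma adjusted p = 0.00103), and it was the only named gene still called after any 1 of the wild-type preparations was left out, with adjusted p of 0.0241, 0.0329 and 0.0197.

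**Figure D2:**
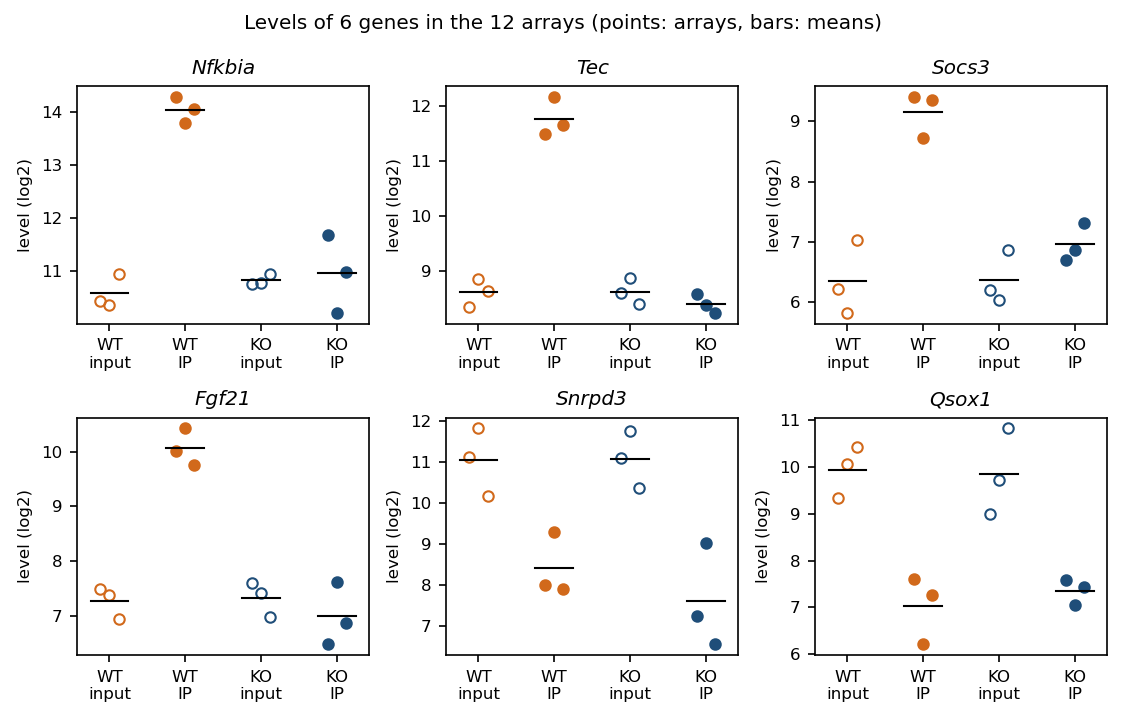
Log2 level of 6 genes in each of the 12 arrays, open circles for input and filled for IP, with wild type in orange, knockout in blue and a bar at each group's mean. The wild-type IP stands above the other 3 groups for Nfkbia, Tec, Socs3 and Fgf21, while Snrpd3 and Qsox1 are lower in the IP of both genotypes.

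Fgf21 and G0s2, both tied to lipid metabolism, were among the 15 highest genes. Fgf21, a hepatokine of fasting, had inputs of 7.49, 7.39 and 6.94 and IPs of 10.01, 10.43 and 9.75. No IP array came near an input, and the difference was 2.79 ± 0.28 (6.9-fold, limma adjusted p = 0.00546). It was the 1 called gene of 17 hepatokines and growth factors. G0s2, an inhibitor of the lipase ATGL, was higher by 2.95 ± 0.34, with inputs of 8.24, 8.21 and 9.15 and IPs of 11.03, 12.16 and 11.26. The other 11 lipid droplet and lipolysis genes were not called, and the list's median was -0.39. Srebf1, the gene of the lipogenic factor SREBP-1, was higher by 1.0 ± 0.23, Nr0b2, the bile acid-responsive repressor SHP, by 1.03 ± 0.20, and Ppp1r3b, a glycogen-targeting phosphatase subunit, by 0.98 ± 0.22. Rpia, an enzyme of the pentose phosphate pathway, was higher by 2.05 ± 0.24, while the other 6 tested genes of that pathway lay below 0. Slc25a34, a mitochondrial carrier, was higher by 2.13 ± 0.32. Secreted or extracellular products among the highest were Adamts1, a metalloproteinase, at 2.67 ± 0.25, F3, the tissue factor that starts coagulation, at 2.48 ± 0.30, and Leap2, a liver-derived antagonist of the ghrelin receptor, at 2.44 ± 0.31. F3 and Leap2 differed so much between preparations that their IP and input arrays overlapped, with Leap2 inputs of 9.50, 11.62 and 6.63 and IPs of 11.48, 13.82 and 9.76. Ccn1 and Ccn2, matricellular proteins, were higher by 1.20 ± 0.23 and 1.10 ± 0.21.

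Transcripts of the deadenylation machinery themselves went in both directions. All 10 CCR4-NOT subunits on the array were tested, and 2 were higher and 1 lower, with a median of 0.17. Cnot8 and Cnot7 encode the alternative CAF1-type deadenylases of the complex. For Cnot8 the inputs were 8.46, 8.06 and 8.24 and the IPs 9.86, 10.69 and 10.20, a difference of 2.00 ± 0.28 (limma adjusted p = 0.0127). The Cnot7 transcript went the other way, from 8.20, 8.59 and 6.81 to 6.34, 7.53 and 5.65, at -1.36 ± 0.31 (limma adjusted p = 0.0389), and was also lower in the knockout IP, by 1.64 on the log2 scale. Cnot3, a regulatory subunit, was higher by 1.07 ± 0.24. Neither Cnot3 nor Cnot7 was called under each scaling. Cnot6l itself was not called, with inputs of 8.44, 9.51 and 9.11 and IPs of 9.11, 10.65 and 8.85, and its level in the knockout inputs was 9.12, 9.23 and 9.34. The labels do not say where its probes lie relative to the deleted part, and these values check neither the labels nor the knockout.

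Adaptors that bring the complex to its targets were also represented. Zfp36, the gene of tristetraprolin, had inputs of 8.46, 9.32 and 8.71 and IPs of 11.24, 12.15 and 10.76. Its groups did not overlap, and the difference was 2.55 ± 0.36 (limma adjusted p = 0.0127). It was the only 1 called of 8 genes for AU-rich element binding proteins, whose median was 0.06. The anti-proliferative genes Btg2 and Tob2, whose proteins bind the CAF1-type subunits, were higher by 1.26 ± 0.22 and 1.03 ± 0.22, and all 3 tested members of that family lay above 0. Edc3, an enhancer of decapping, was higher by 1.51 ± 0.23 and Paip2, an inhibitor of poly(A)-binding protein, by 1.10 ± 0.23, out of 21 PAN2-PAN3, poly(A)-binding and decapping factors. Tnrc6a, the GW182 protein of the microRNA pathway, was higher by 1.09 ± 0.26. Tent5a, a noncanonical poly(A) polymerase, was higher by 2.83 ± 0.34. Of 21 exosome and nonsense-mediated decay genes 3 were lower and none higher, namely Exosc10 at -1.55 ± 0.22, Upf1 at -1.30 ± 0.31 and Exosc5 at -1.15 ± 0.23, and of these Exosc10 alone was called under each scaling. That list's median, -0.07, became 0.09 under cyclic loess.

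Of 199 tested zinc finger protein (Zfp) genes, many of them DNA-binding repressors, 12 were higher and 3 lower. In all 140 of the 199, or 70.4%, lay above 0, against 41.6% of all genes, and the median was 0.28. In the knockout 94 of them lay above 0 and the median was -0.06. Besides Zfp36 the largest were Zfp809, which silences retroviral DNA, at 1.98 ± 0.27, Zfp11 at 1.73 ± 0.27 and Zfp958 at 1.65 ± 0.35. The list was dim, with a median input level of 6.76. Among all genes with a knockout input level of 6 to 8, the median was -0.01 in the wild type and -0.15 in the knockout. Under a level of 6 these medians were 0.31 and 0.39. The list was not compared with genes of matched level, and the part of the level in its median was not tested. Taf5, a TFIID subunit, was higher by 2.86 ± 0.27, Cdk7, the kinase of TFIIH, by 1.81 ± 0.25 and Med31, a Mediator subunit, by 1.66 ± 0.21. These belong to the 5 higher and 3 lower of 73 RNA polymerase II, TFIID, TFIIH and Mediator genes, a list whose median of -0.06 became 0.09 under cyclic loess. Of the 229 higher genes, 72 belonged to any of the functional classes, which hold 2083 of the genes tested. Joined together, 12 lists of transcription factors, signal inhibitors, cytokines and chemokines, homeobox genes included, hold 349 tested genes, of which 199 are the dim Zfp genes. Of the 349, 32 (9.17%) were higher and 7 (2.01%) lower, against 2.41% and 4.61% of all genes tested. The members of these lists, as of the others here, were chosen with earlier results of these data known. The shares are therefore a description and cannot serve as a test of an excess. Over these genes the median was 0.28 in the wild type and -0.11 in the knockout, and 23 of the 32 were called higher under each scaling.

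Homeobox, ion channel and neurotransmitter receptor genes had medians above 0 in both genotypes, whereas the median of keratins was 0.03 in the wild type, turning to -0.03 under cyclic loess, and 0.11 in the knockout, and those of sarcomere proteins were -0.02 and -0.17. The 16 tested homeobox genes all lay above 0 in the wild type, with a median of 0.38, and had a median of 0.63 in the knockout, where 15 lay above 0. Potassium, sodium and calcium channel genes had medians of 0.51 and 0.41 in the wild type and the knockout, and neurotransmitter receptors 0.35 and 0.38. Their median input levels were 6.24, 5.76 and 5.87, near the bottom of the range tested. Only 16 of 87 homeobox, 12 of 100 channel and 10 of 72 receptor genes on the array were tested. Since the filter used the mean over all arrays, IPs included, it favours dim genes with brighter IPs, and medians above 0 in these lists are partly set by it. Hoxa7 was the 1 gene called among these 3 lists, at 0.82 ± 0.19, and it was not called under each scaling. For comparison, the wild-type and knockout medians were 0.57 and -0.29 for immediate early genes, 0.44 and -0.42 for Krüppel-like factors, 0.36 and -0.05 for the phosphatases and 0.32 and 0.03 for clock genes, against -0.11 and -0.21 over all genes. No test was made of the difference between list medians.

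**Figure D3:**
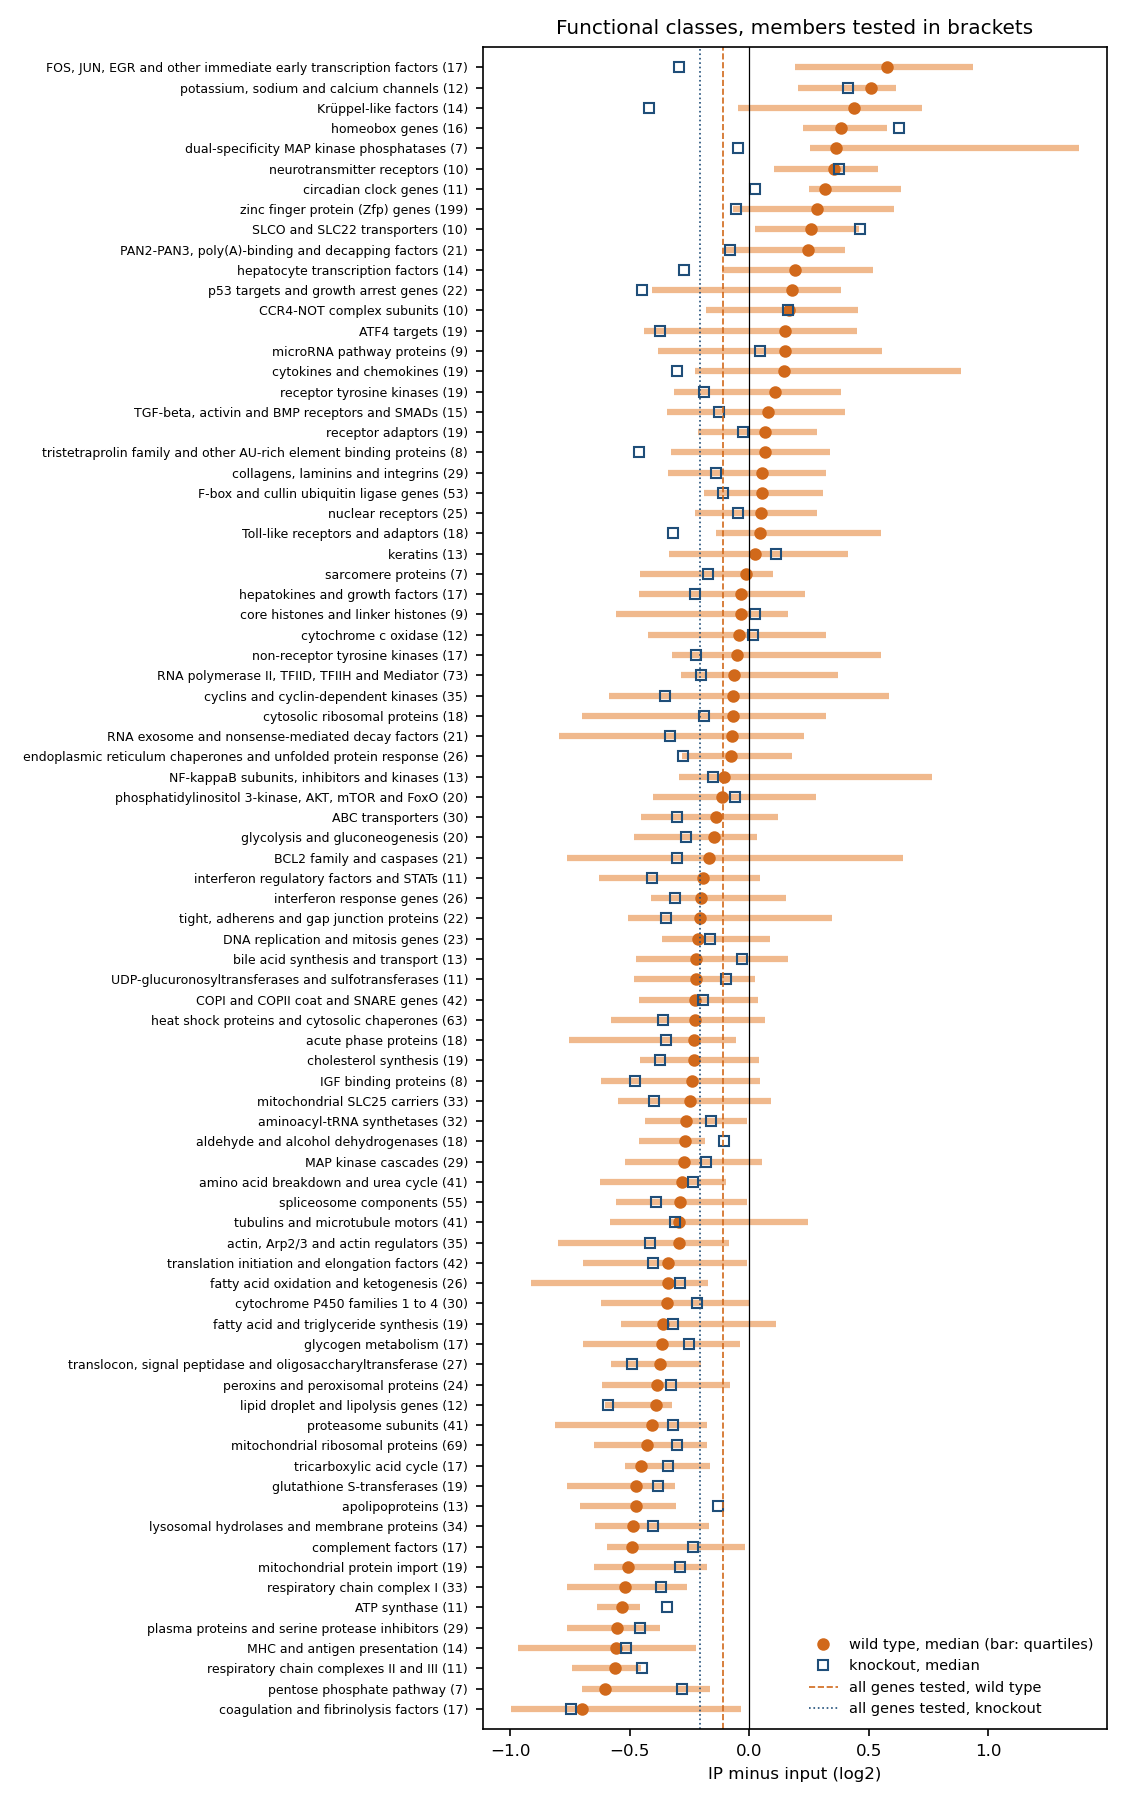
Median IP minus input (log2) of functional classes with at least 7 tested members, as orange points with quartile bars for the wild type and open blue squares for the knockout, with lines at the medians of all genes tested (-0.11 and -0.21). Immediate early genes lie highest in the wild type, at 0.57, and coagulation and fibrinolysis factors lowest, at -0.70.

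Transcripts of secreted liver proteins mostly lay below their input in the precipitate, with 21 of 119 (17.6%) above 0, against 41.6% of all genes. Of 119 tested genes in 7 lists of secreted proteins, 12 (10.1%) were lower and 1 (0.84%) higher, against 4.61% and 2.41% of all genes. Of the 12, 3 were called under each scaling. The median was -0.40 in the wild type and -0.38 in the knockout. These lists were bright, with a median input level of 10.51. Among all genes with a knockout input level of 10 to 12, 9.35% were lower and the wild-type median was -0.35. Among 29 plasma proteins and serine protease inhibitors 1 lay above 0, 4 were lower and the median was -0.56. Fetub, a fetuin, had inputs of 10.20, 10.97 and 11.72 and IPs of 9.01, 9.63 and 10.74, a difference of -1.17 ± 0.20 (limma adjusted p = 0.0189). Vtn, vitronectin, was lower by nearly the same amount in each preparation, from 11.66, 11.96 and 11.48 to 10.53, 10.79 and 10.43, a mean of -1.12 ± 0.20. The groups of Vtn did not overlap, whereas those of Fetub did because its preparations differed in level. Coagulation and fibrinolysis factors had the lowest median of the classes drawn, -0.70, and 4 of 17 were lower, namely F7 at -1.91 ± 0.39, Plg at -1.06 ± 0.24, F12 at -1.01 ± 0.23 and F2 at -1.0 ± 0.25. None of these 4 was called under each scaling, although the class median stayed below 0 under cyclic loess, at -0.49. The tissue factor gene F3, higher by 2.48, is not part of this list. C1ra, the complement protease C1r, was lower by 2.01 on the log2 scale (SE 0.28), from 8.85, 9.58 and 10.51 to 7.32, 6.98 and 8.59. All 13 apolipoprotein genes lay below 0, and Apoe was the 1 called, at -1.04 ± 0.22. Of 18 acute phase genes 0 were called, and Hp, haptoglobin, had a difference of -0.83 ± 0.22 (limma adjusted p = 0.0575).

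Genes for mitochondrial proteins mostly lay below their input, with 29 of 136 (21.3%) above 0, against 41.6% of all genes. Over 136 tested genes in 7 lists the median was -0.45 in the wild type and -0.34 in the knockout. Of the 136, 8 (5.88%) were lower and 1 (0.735%) higher, against 4.61% and 2.41% of all genes. These lists were bright, with a median input level of 10.95. Among all genes with a knockout input level of 10 to 12, 9.35% were lower and the wild-type median was -0.35. Respiratory chain complex I had 3 of 33 lower, Ndufb2, Ndufs8 and Ndufa10, at -1.16 ± 0.26, -0.99 ± 0.25 and -0.76 ± 0.19, of which 0 were called under each scaling. Each of the 11 genes of complexes II and III lay below 0, and 0 were called. The same held for the 11 ATP synthase genes, except that Atp5b was called at -1.09 ± 0.26. Cytochrome c oxidase had a median of -0.04, with 5 of 12 above 0 and 0 called. Mitochondrial ribosomal proteins had 6 lower of 69, with a median of -0.43 and 10 above 0. Of these Mrpl14, at -1.33 ± 0.26, was called under each scaling. Tomm40, the pore of the outer membrane translocase, was lower, with inputs of 10.17, 9.99 and 9.82 and IPs of 9.05, 7.51 and 7.64. Its difference was -1.92 ± 0.32 and its groups did not overlap. Cytosolic ribosomal proteins, which are brighter still at a median input level of 11.71, had a median of -0.07 with 1 of 18 lower, Rps4l. That median became 0.23 under cyclic loess.

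Enzymes of intermediary metabolism mostly lay below their input, with 78 of 307 (25.4%) above 0, against 41.6% of all genes. Across 16 lists with 307 tested genes, 20 (6.51%) were lower and 7 (2.28%) higher, against 4.61% and 2.41% of all genes. Both shares are near those of all genes. The median was -0.29 in the wild type and -0.27 in the knockout. Fatty acid oxidation and ketogenesis had 4 lower of 26, Echs1 at -1.40 ± 0.22, Hadha at -1.24 ± 0.27, Etfa at -1.13 ± 0.26 and Acaa2 at -0.96 ± 0.22. Of these Echs1, enoyl-CoA hydratase, was called under each scaling. Got1, the cytosolic aspartate aminotransferase, had inputs of 11.15, 11.69 and 10.11 and IPs of 9.61, 9.54 and 8.58, a difference of -1.74 ± 0.23 (limma adjusted p = 0.0119). The highest IP lay below the lowest input. It was 1 of 5 lower of 41 genes of amino acid breakdown and the urea cycle, with Asl, argininosuccinate lyase, at -1.26 ± 0.23 and Bckdhb, of branched-chain keto acid oxidation, at -1.17 ± 0.19. Glycolysis had Pklr, the liver pyruvate kinase, lower at -1.33 ± 0.26 and Slc2a1, the glucose transporter GLUT1, higher at 0.94 ± 0.21. Drug-metabolising cytochromes P450 were called in 2 of 30 cases, Cyp2d22 at -1.10 ± 0.21 and Cyp2j11 at 0.79 ± 0.19, and Cyp2j11 was also higher in the knockout IP, at 1.16. Glutathione S-transferases had 3 lower of 19, of which 0 were called under each scaling, led by Mgst3 at -1.48 ± 0.29.

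The lowest single genes came from no single class. Cyp39a1, an oxysterol hydroxylase, Loxl2, a lysyl oxidase, and Qsox1, a sulfhydryl oxidase of the secretory pathway, were lower by 2.92, 2.92 and 2.91 on the log2 scale (SE 0.51, 0.27 and 0.45). Qsox1 had inputs of 9.35, 10.06 and 10.42 and IPs of 7.61, 6.21 and 7.27, with no overlap. Loxl2 varied more between preparations than between fractions, with inputs of 8.43, 7.72 and 11.02 and IPs of 5.42, 4.32 and 8.68, so that its groups overlapped. Snrpd3, a core protein of the spliceosomal particles, had inputs of 11.13, 11.81 and 10.17 and IPs of 8.01, 9.29 and 7.91. Its difference of -2.63 ± 0.28 was the largest among 55 spliceosome genes, of which 6 were lower and none higher. Snrnp70 at -1.89 ± 0.27 and Srsf5 at -1.77 ± 0.36 were also in that list. Others among the 15 lowest were Mta2, of the NuRD repressor, at -2.69 ± 0.34 and Rraga, a GTPase of mTORC1 nutrient sensing, at -2.27 ± 0.25. The remaining ones were Decr2, Glrx, Net1, Mpdu1, Dapk3, Atf5, Rnf13, Dhx9 and Swi5, between -2.58 and -2.27, with Decr2, Atf5 and Dhx9 not called under each scaling. Gjb1, the gap junction protein connexin 32 of hepatocytes, fell by 1.92 on the log2 scale with 1.78, 1.95 and 2.02 in the preparations, and Ctnnb1, beta-catenin, was at -1.53 ± 0.22.

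Over 8 lists of protein folding, degradation and membrane traffic, ATF4 targets included, with 301 tested genes, 19 (6.31%) were lower and 5 (1.66%) higher, against 4.61% and 2.41% of all genes, and 2 of the 19 were called under each scaling. This lower share is near that of all genes. Lysosomal proteins had 5 lower of 34, including Psap, prosaposin, at -2.09 ± 0.43, with 0 called under each scaling. Proteasome subunits had 4 lower of 41, among them Psmd4 at -1.46 ± 0.33, and again 0 were called under each scaling. Coat and SNARE genes had 2 lower of 42, about the share over all genes, with Sec13 at -1.37 ± 0.22 and Ykt6 at -1.14 ± 0.21. Of 26 endoplasmic reticulum chaperones 2 were higher and none lower, Creld2 at 1.19 ± 0.27 and Syvn1, the ubiquitin ligase HRD1, at 1.06 ± 0.22. ATF4 targets went both ways, with Ppp1r15a, the stress-induced phosphatase subunit GADD34, at 1.23 ± 0.23 and Vldlr at 1.13 ± 0.21, against Atf5 at -2.37 ± 0.53. Antigen presentation had 3 lower of 14, Tapbp at -1.21 ± 0.20, H2-D1 at -1.11 ± 0.21 and H2-K1 at -1.04 ± 0.24.

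**Figure D4:**
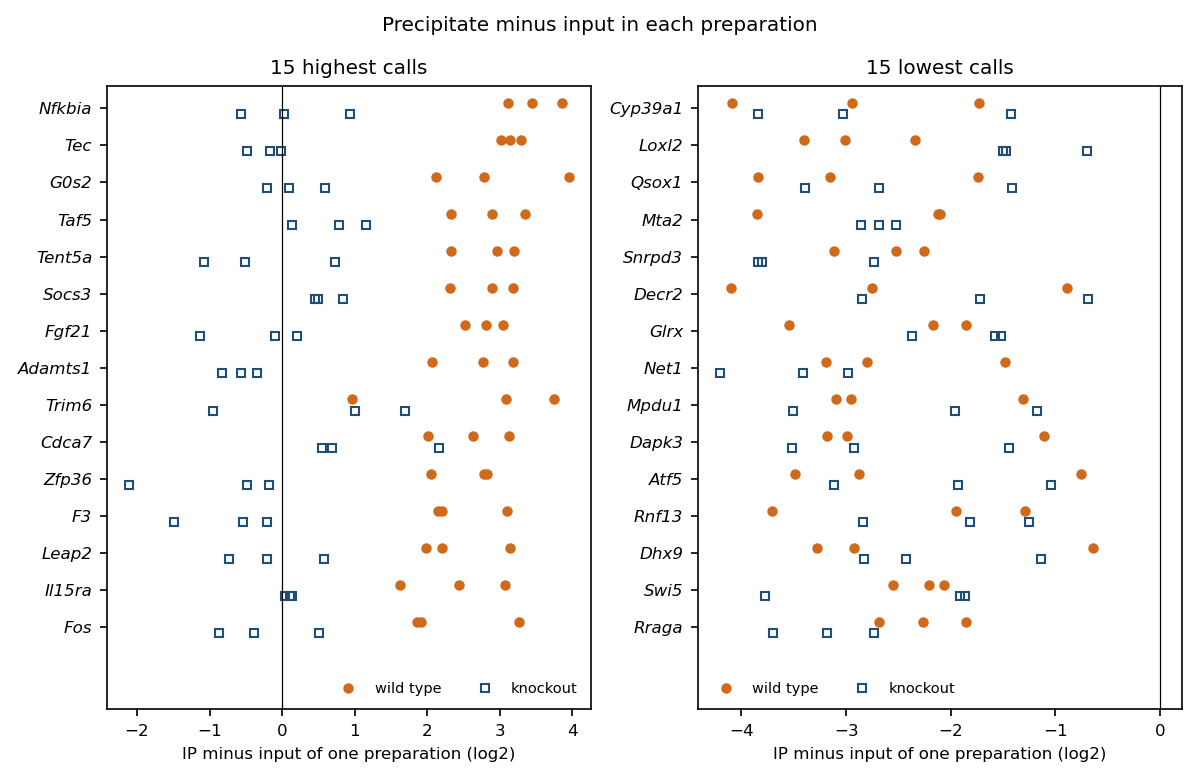
IP minus input (log2) in each preparation for the 15 genes called higher (left) and the 15 called lower (right) with the largest differences, as orange circles for the 3 wild-type and open blue squares for the 3 knockout preparations. The knockout points of the higher genes lie on both sides of 0, while those of the lower genes lie below 0 like the wild type. All 3 knockout points lie above 0 for Taf5, Socs3, Cdca7 and Il15ra, and below 0 for Tec, Adamts1, Zfp36 and F3.

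Set beside the knockout precipitate, 58.0% of the lower genes and 5.68% of the higher genes were called in the same direction there. In the knockout 69 genes were higher (0.727%) and 501 lower (5.28%), or 6% in either direction, with a median over all genes of -0.21. Of the 438 genes lower in the wild type, 254 were also lower in the knockout. That is 58.0% of the wild-type list and 50.7% of the knockout list. In the knockout 437 of the 438 lay below 0, while 34.1% of all genes tested lay above 0. Of the 229 higher genes, 143 lay above 0 in the knockout and 86 below. Called higher there too were 13 of the 229, which is 5.68% of the wild-type list and 18.8% of the knockout list, and 2 were lower. These 2 were Btg2, at -1.08 in the knockout, and Ccn1, at -1.12. The median knockout difference was 0.16 over the wild-type higher genes and -1.07 over the lower genes. The knockout counts depend on the scaling, at 3 higher and 30 lower after quantile normalization, and on single preparations, at 0 and 6 without knockout preparation 2.

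**Figure D5:**
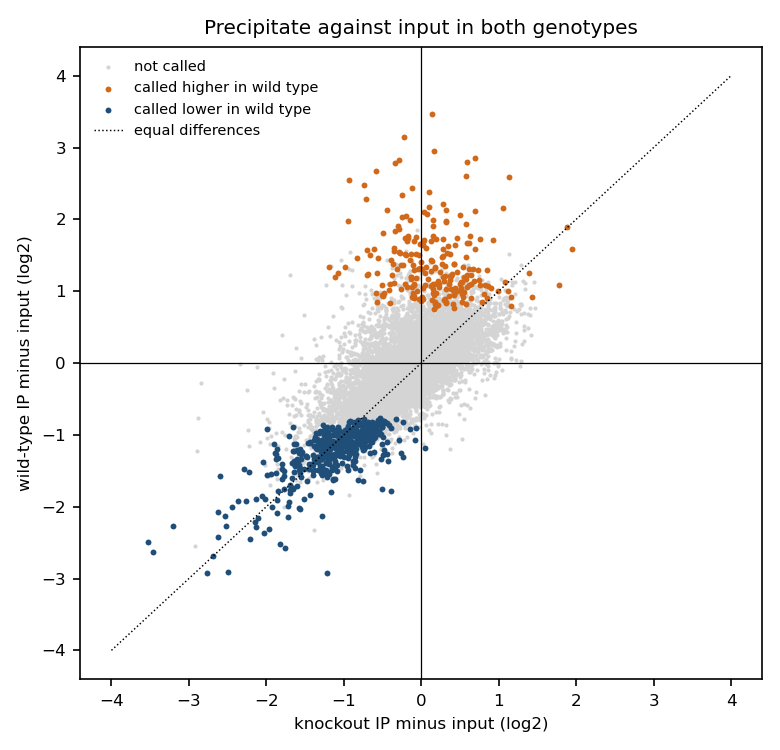
Wild-type against knockout IP minus input (log2) for 9496 genes, with genes called higher in the wild type in orange, genes called lower in blue and a dotted line of equal differences. Blue points follow the line, and most orange points lie above it around a knockout difference of 0.

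The difference between the genotypes was tested gene by gene as the wild-type minus the knockout value of IP minus input. By limma 2 genes passed higher (0.0211%) and 0 lower (0%), and at an unadjusted p under 0.05 there were 526 and 59. Tec, with knockout inputs of 8.61, 8.88 and 8.41 and IPs of 8.58, 8.39 and 8.25, differed between genotypes by 3.37 ± 0.28 (limma adjusted p = 0.0103). Adamts1 had wild-type inputs of 7.42, 8.17 and 9.13 and IPs of 10.18, 11.35 and 11.20, while the knockout IPs of 7.04, 7.44 and 9.17 lay below their inputs of 7.38, 8.27 and 9.73. It differed by 3.25 ± 0.35 (limma adjusted p = 0.046). Without the replicate block Tec kept an adjusted p of 0.0219, and Adamts1 lost its call (limma adjusted p = 1.0). Adamts1 also missed the threshold after quantile normalization (0.061) and cyclic loess (0.058). Leaving out any of the 3 wild-type preparations, or knockout preparation 3, took the adjusted p of both genes past 0.05, to 0.053 or above. Several larger or similar genotype differences did not pass with the preparation as the block, namely Zfp36 at 3.48 ± 0.51 (limma adjusted p = 0.08), Nfkbia at 3.34 ± 0.42 (0.0571), Fgf21 at 3.13 ± 0.39 (0.0571), Tent5a at 3.11 ± 0.48 (0.084) and Ccng2 at 3.0 ± 0.37 (0.0571). With replicate number within each fraction as the block instead, 34 genes passed, and the adjusted p was 0.00907 for Nfkbia and for Fgf21, 0.0461 for Ccng2, 0.0699 for Zfp36 and 0.0896 for Tent5a. Nfkbia also passed with the stricter filter (0.0381) and with an intensity trend (0.00891). Among the 15 lowest genes the genotype differences ran from -1.70 ± 0.38 for Loxl2 (limma adjusted p = 0.212) to 1.04 ± 0.50 for Net1 (0.905), with -0.01 ± 0.48 for Mta2, and none passed. With 3 preparations per genotype these intervals are wide, and a gene that missed the threshold is not shown to behave alike in both genotypes.

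Gene span and base composition near the start were computed for the same sets. The median genomic span was 21.9 kb over all genes tested, 19.2 kb for the higher genes and 17.5 kb for the lower genes. Promoter windows had a median GC content of 61.0%, 61.7% and 60.3% in the same order. The letters TATAAA, searched on the gene's strand only, were found in 4.63% of all windows, 7.94% of those of the higher genes and 5.68% of those of the lower genes. These shares are descriptions with no test.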

How the data were processed

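RNA of 12 hepatocyte samples was measured, 1 array each. The authors deposited log2 values, as their range shows, 1 per probe set and array. Their background correction and normalization were not given in the sources used here. Of 16539 probe sets, 64 were controls and 695 others unnamed, and 15752 of the 15780 named genes matched the RefSeq gene table (GRCm38.p6) by Entrez identifier. Genes were tested if their mean over all arrays reached the 40th percentile of probe sets (5.57).

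All 12 arrays entered 1 fit in limma 3.58.1 (R 4.3.3, statmod 1.5.0) with 6 preparations as blocks (4 residual degrees of freedom), IP minus input per genotype, and Benjamini-Hochberg adjustment over 9496 genes. All adjusted p-values are two-sided limma values, and calls are at adjusted p under 0.05. The fit was tested on simulated data. The pairing comes from the series text. Deviations of IP and input from their group means correlated at 0.63, 0.71 and 0.76 for the same wild-type number and at 0.51, 0.58 and 0.72 for the knockout, against -0.55 to 0.00 for different numbers. Taking deviations from group means pushes the values for different numbers down, so this contrast is no independent check of the pairing.

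Named were the 15 largest calls in each direction, genes called between genotypes, up to 4 called members per class (or up to 2 uncalled), Cnot6l and Fgf21. The 212 tested genes with clone names only were counted and not named. The 87 functional classes overlap, and 1 of them is not reported here. Their members, and the comparison itself, were chosen with earlier results of these data known, and class counts are descriptions. Alternatives were no block, the genotype's arrays alone, 2 other normalizations, 2 other filters, an intensity trend, a robust prior and each preparation left out. The requirement of a call under all 3 scalings was added after seeing the data. Precision is limited by how many arrays there are, since arrays carry no read depth. Figures were drawn with matplotlib 3.10.9 in Python 3.11.15.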

Additional observations from a re-analysis of the deposited data

Results flagged for a closer look

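For 2 genes the IP minus input difference itself differed between wild type and knockout by limma's test of that difference. Tec differed by 3.37 (adjusted p = 0.0103) and Adamts1 by 3.25 (adjusted p = 0.046), each being higher in 3 of 3 wild-type and in 0 of 3 knockout preparations.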

How the results depend on the processing

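Wild-type calls higher were 229 and lower 438. Without the replicate block they were 10 and 0, and the lower calls were 159 after quantile normalization, 227 after cyclic loess, 245 without a filter, 672 with an intensity trend and 155 when required under all 3 scalings. Leaving out 1 preparation gave 1 to 305 higher and 0 to 633 lower.

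Knockout calls were 69 higher and 501 lower. The higher calls became 0 without the block, 0 with the knockout arrays alone, 3 after quantile, 10 after cyclic loess, 1073 without a filter and 17 at the 60th percentile. The lower calls became 0 without the block, 8 with the knockout arrays alone, 30 after quantile and 55 after cyclic loess. Leaving out 1 preparation gave 0 to 34 higher and 6 to 345 lower.

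Between genotypes 2 genes passed higher. This became 1 without the block, after quantile, after cyclic loess, without a filter and with a robust prior, 8 at the 60th percentile, 17 with a trend, 34 with replicate number within fraction as the block, and 0 to 6 with 1 preparation left out. None passed lower in any of these.

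Of 181 named genes called in the wild type, 10 stayed called without the block, 101 after quantile, 117 after cyclic loess and 1 without wild-type preparation 2. No named call changed sign under an alternative that was run. Of 93 class medians 11 changed sign after quantile and 14 after cyclic loess. The causes were not tested. Replicate numbers are used in both genotypes, and inputs of the same number correlated at 0.98 to 0.99 between wild type and knockout. Low signal and 3 preparations per group limit these results.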
